A study of Mus musculus with 18 samples.

Results

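Collagens are proteins of the extracellular matrix, and each collagen gene encodes an alpha chain that winds together with other alpha chains into a rope-like helix. The genes described here were chosen by name: a probe belongs to the set where RefSeq places its accession on a protein-coding gene of the mouse whose symbol reads Col, a number, the letter a and a number. RefSeq lists 44 such genes. The array held 43 probes for 39 of them, out of 37246 probes and 34289 gene or transcript names in all, and 4 genes (Col2a1, Col6a6, Col18a1 and Col25a1) had 2 probes each. Col6a3, Col6a5, Col12a1, Col20a1 and Col22a1 were not analysed here.

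The study compared gene expression in mouse embryonic stem (ES) cells and in isogenic cells made to differentiate (ED cells), before and after ionizing radiation (IR). The ES cells were early-passage cells taken from blastocysts and were kept on gelatin with leukemia inhibitory factor (LIF) and no feeder layer. The ED cells came from the same cells by withdrawal of LIF, for 1 week or until stem cell markers were lost according to the sample descriptions. According to the methods, beta-mercaptoethanol was withdrawn too, the time was at least 4 days, and differentiation was not directed to a named cell type. Cells were left unirradiated (groups ES and ED) or were given 10 Gy and collected 15 min later (ESRE and EDRE) or 4 h later (ESRL and EDRL). Each of the 6 groups held 3 samples, and each of the 18 samples was hybridized to its own one-color Agilent array. The methods say that samples were not pooled. Nothing says that replicates came from separate cultures, so p-values measure only the spread between these samples, which may be technical.

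Collagens are sorted by what they build. Fibrillar collagens such as types I, II, III, V and XI form the banded fibrils of connective tissue, bone and cartilage, type IV forms the sheet-like network of basement membranes, type VI forms beaded filaments, types VIII and X form hexagonal lattices, and the fibril-associated collagens (FACITs) sit on the surface of fibrils. Other collagens span the cell membrane, anchor the skin to its basement membrane, or, as the multiplexins, belong to the basement membrane zone and release fragments from their ends. New chains are hydroxylated and folded in the endoplasmic reticulum, trimmed by proteases after secretion and crosslinked by lysyl oxidases.

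Every signal is given as the log2 of the scanner's background-corrected intensity minus the 75th percentile of the same array, so that 0 is the level of a fairly bright probe. Levels of different probes are not comparable, since each probe binds its target differently. Spots that the scanner software marked as not uniform were treated as missing. Of all probes, 49.5% to 86.1% were well above background on each array, and of the 43 collagen probes 24 to 38 were. Negative spots carried this mark too, 1.5% to 37.5% of them on each array. A dim signal that is well above background therefore need not show expression. Replicates 2 and 3 of EDRE stood apart before any comparison was made. They had 24.4% and 23.8% of their spots marked as not uniform, 49.5% and 55.5% of their probes were well above background, and 11 collagen probes were missing on each. Their 75th percentiles of intensity were 875 and 1155, and those of the other 16 arrays lay between 1952 and 4268. No collagen spot was saturated. Precision is limited throughout by the number of arrays.

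To be called higher or lower, a gene needed 1 probe or more with a limma adjusted p under 0.05 and a log2 change above 1 in size. Only probes that stood well above background throughout 1 of the groups compared, on each of its 3 arrays, were tested. Where a group had 1 usable spot, limma took the spread from the other groups, and the lone spot is assumed to vary like theirs. Of the 39 collagen genes, 34 stood so in at least 1 group, and 33 of these were tested in at least 1 comparison between groups. Col4a3, Col4a4, Col11a2, Col19a1 and Col28a1 did not stand well above background throughout any group and were not tested. Col5a2, a chain of the fibrillar type V, was tested in no comparison, as it had no usable spot in ED or EDRL cells and was not well above background throughout any ES group.

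The question of the first comparison was how ED cells differ from ES cells without IR. Most of the collagen genes that could be tested differed. The type I and III chains, Col6a1, Col6a2, Col8a1, Col10a1 and Col16a1 had higher signals in ED cells, and Col2a1, Col9a2, Col18a1, Col23a1, Col26a1 and Col4a6 had lower ones. Of 33 genes tested, limma called 24, of which 11 were higher and 13 lower in ED cells. The called share was 72.7%, against 41.5% of the 26228 genes or transcripts tested in all; 33.3% were called higher against 14.9%, and 39.4% lower against 26.7%. The median change of the collagens was -0.15 beside -0.19 for all genes, and the median size of change was 2.39 beside 0.854. With the 4 genes that were not well above background in 1 of the groups (Col10a1, Col14a1, Col23a1 and Col26a1) set at the bound described with their values, the median of the collagens was again -0.15. This was fixed in advance, since each bound lies on the same side of the median as the change it replaces. Of 36 collagen probes, 31 had values in ED cells that did not overlap those in ES cells, as did 72.9% of all 28636 probes tested. In RNA from a whole culture, fewer cells of a type and less RNA per cell cannot be told apart.

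**Figure D1:**
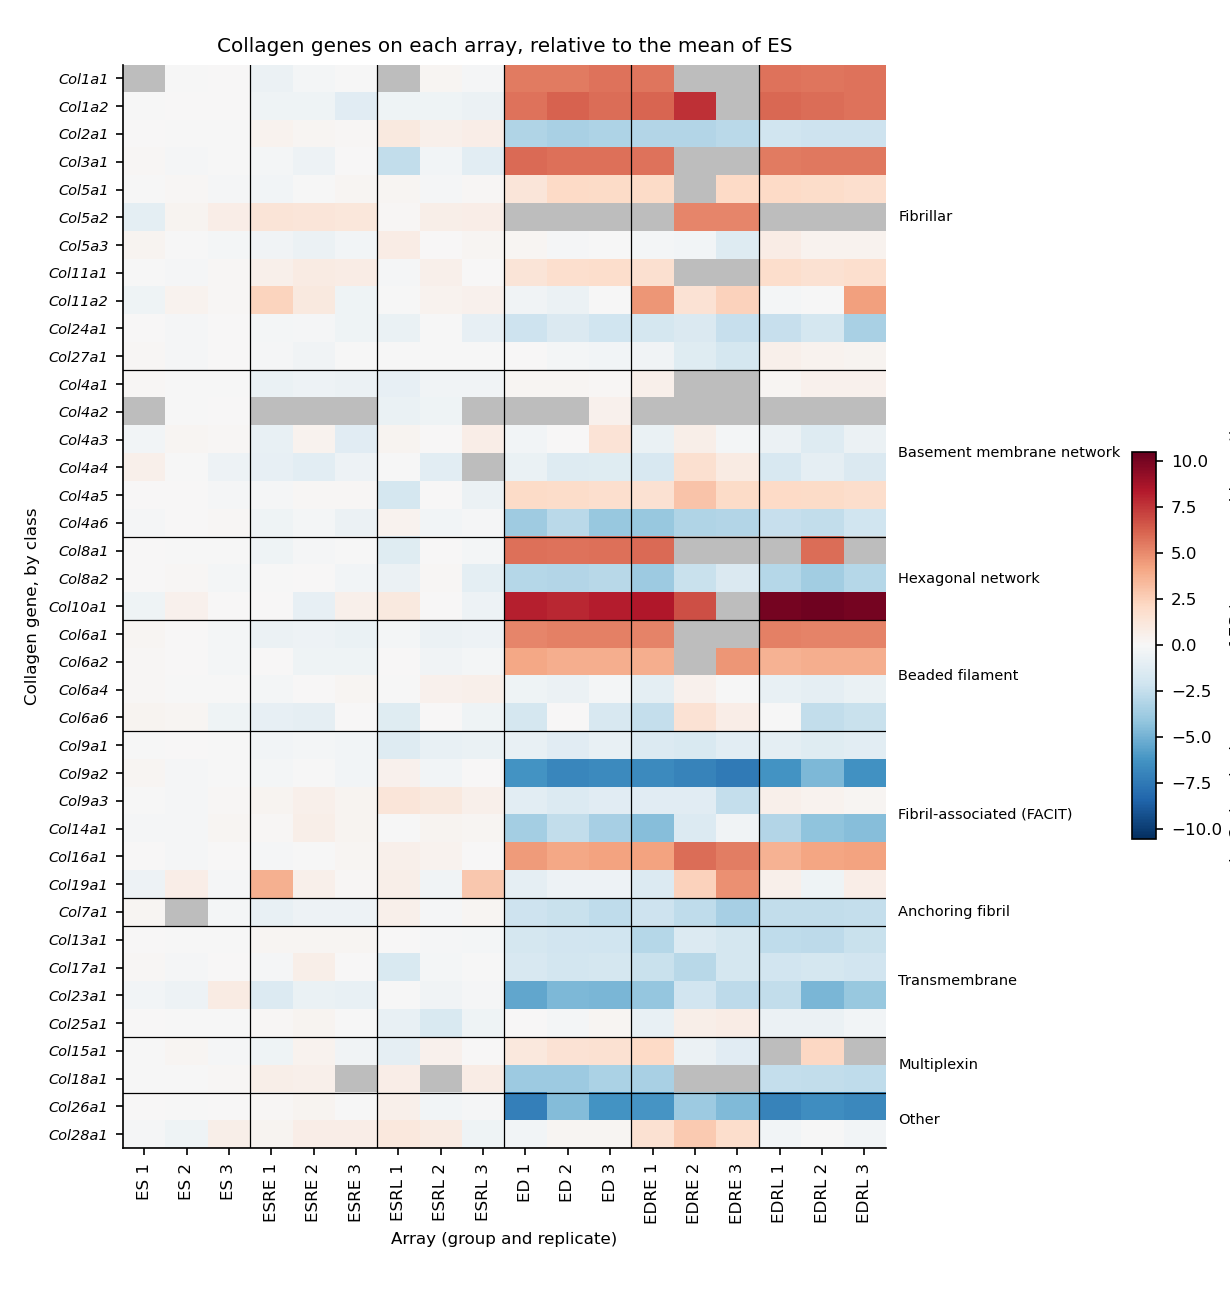
Log2 signal of each collagen gene on each of the 18 arrays minus its mean over the 3 ES arrays, with genes in order of their structural class, arrays in order of group and replicate, and grey for spots that could not be used. The ED, EDRE and EDRL arrays stand apart from the ES, ESRE and ESRL arrays in both directions, with changes of 8.12 for Col10a1 and -6.62 for Col9a2 in ED against ES cells.

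The promoters of the genes with the largest changes are printed to show what lies in front of genes that moved in opposite directions. They are the 3 largest rises and the 3 largest falls, by fitted change, among called genes with 1 promoter entry, well above background in the higher group, and Col4a5, which shares a start region with Col4a6; they were chosen after their values were seen. Each is the 250 bases before the annotated start in RefSeq, build GRCm38.p6, read 5′ to 3′ on the strand of the gene. Capitals mark 3 short motifs, searched one by one on both strands, where matches on opposite strands may overlap: CCAAT, which reads ATTGG on the other strand, then GGGCGG, which reads CCGCCC there, and last TATAAA, which reads TTTATA there. Col10a1, the chain of the cartilage collagen type X, lies at chr10:34389731-34389980 (plus strand). Col1a2 and Col3a1, fibrillar chains of types I and III, lie at chr6:4505368-4505617 (plus strand) and at chr1:45311288-45311537 (plus strand). Col9a2, a chain of the FACIT type IX, lies at chr4:121039316-121039565 (plus strand), and the membrane collagen Col23a1 at chr11:51289670-51289919 (plus strand). The basement membrane genes Col4a6 and Col4a5 lie at chrX:141474077-141474326 (minus strand) and at chrX:141475169-141475418 (plus strand), head to head with 1342 bases between their starts.
Col10a1: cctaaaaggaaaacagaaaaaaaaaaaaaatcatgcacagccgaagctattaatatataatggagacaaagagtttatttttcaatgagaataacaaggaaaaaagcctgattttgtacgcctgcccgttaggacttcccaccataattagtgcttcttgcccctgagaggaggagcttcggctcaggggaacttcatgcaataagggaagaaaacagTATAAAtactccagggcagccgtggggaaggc
Col1a2: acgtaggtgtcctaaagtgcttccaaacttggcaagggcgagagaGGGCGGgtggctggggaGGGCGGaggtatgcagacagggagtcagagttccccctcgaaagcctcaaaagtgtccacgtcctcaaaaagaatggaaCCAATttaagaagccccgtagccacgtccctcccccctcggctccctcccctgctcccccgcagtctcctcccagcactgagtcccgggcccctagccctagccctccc
Col3a1: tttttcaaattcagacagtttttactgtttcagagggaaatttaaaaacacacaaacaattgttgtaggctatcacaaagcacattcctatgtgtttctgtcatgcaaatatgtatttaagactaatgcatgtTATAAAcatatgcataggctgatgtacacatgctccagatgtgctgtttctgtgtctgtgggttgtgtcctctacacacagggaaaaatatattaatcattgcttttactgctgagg
Col9a2: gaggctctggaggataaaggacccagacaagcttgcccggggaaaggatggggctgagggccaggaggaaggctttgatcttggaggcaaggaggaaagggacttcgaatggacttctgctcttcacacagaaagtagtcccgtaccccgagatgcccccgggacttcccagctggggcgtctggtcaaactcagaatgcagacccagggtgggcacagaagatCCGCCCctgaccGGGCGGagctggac
Col23a1: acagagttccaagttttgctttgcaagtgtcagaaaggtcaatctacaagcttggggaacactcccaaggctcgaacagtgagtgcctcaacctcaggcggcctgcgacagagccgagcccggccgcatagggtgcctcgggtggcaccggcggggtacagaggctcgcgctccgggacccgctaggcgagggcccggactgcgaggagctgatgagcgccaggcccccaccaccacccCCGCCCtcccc
Col4a6: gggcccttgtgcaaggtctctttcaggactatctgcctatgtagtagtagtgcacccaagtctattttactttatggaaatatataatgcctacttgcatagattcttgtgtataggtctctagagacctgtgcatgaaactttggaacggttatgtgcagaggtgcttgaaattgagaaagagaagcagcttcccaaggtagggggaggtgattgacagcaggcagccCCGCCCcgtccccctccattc
Col4a5: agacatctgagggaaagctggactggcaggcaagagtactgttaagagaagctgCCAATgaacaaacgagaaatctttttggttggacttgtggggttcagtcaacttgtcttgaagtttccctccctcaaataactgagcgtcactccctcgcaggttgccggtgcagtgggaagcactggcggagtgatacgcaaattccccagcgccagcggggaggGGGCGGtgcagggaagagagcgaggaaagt

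The letters TATAAA were found once each in front of Col10a1 and Col3a1. Col1a2 had 1 match of CCAAT and 2 of GGGCGG, Col9a2 had 2 of GGGCGG, Col23a1 and Col4a6 had 1 of GGGCGG each, and Col4a5 had 1 of CCAAT and 1 of GGGCGG. Over 38 promoters of collagen genes, 13 (34.2%) held CCAAT, against 33.8% of 32851 promoters of all genes. GGGCGG was in 22 of them (57.9%), against 32.7% of all promoters, and TATAAA in 5 (13.2%), against 12.4%. Among 11 promoters of genes called higher in ED cells, 8 held GGGCGG, 4 held CCAAT and 2 held TATAAA. Among 10 promoters of genes called lower, 6 held GGGCGG, 3 held CCAAT and 2 held TATAAA. A match describes these letters and is no sign that a factor binds there, and a missing match says only that the letters are not in the window. No promoter entry was found for Col1a1, Col2a1, Col4a3, Col5a2, Col9a3, Col14a1 and Col26a1.

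Fibrillar collagens included the largest group of rises. Col1a1 and Col1a2 encode the chains of type I collagen, the main fibril of bone, skin and tendon. Col1a1 had signals of 1.61 and 1.62 in ES replicates 2 and 3, with no usable spot in replicate 1, and of 7.08, 7.08 and 7.33 in ED replicates 1 to 3. Col1a2 was at -1.70, -1.61 and -1.62 in ES cells and at 4.09, 4.51 and 4.20 in ED cells. Both chains were higher on every ED array than on every usable ES array, with no overlap. The change was 5.55 for Col1a1 (SE 0.20, adjusted p = 1.28e-09 by limma), a 46.8-fold difference. For Col1a2 it was 5.91 (SE 0.31, adjusted p = 1.46e-09), a 60.0-fold difference. Col3a1 encodes type III collagen, which forms fibrils with type I in skin and vessel walls. It was at -3.57, -3.81 and -3.69 in ES cells and at 2.25, 2.08 and 2.08 in ED cells, again without overlap, a change of 5.82 (SE 0.41, adjusted p = 6.43e-08, 56.7-fold).

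The minor fibrillar chains that were tested moved less. Col5a2 was not tested, and its values with marked spots kept are given at the end. Col5a1, of the type V collagen that starts and limits fibrils of type I, was 1.79 higher in ED cells (SE 0.21, adjusted p = 7.24e-06). Col11a1, its relative in cartilage fibrils, was 1.65 higher (SE 0.20, adjusted p = 1.14e-05). Col2a1, which encodes the main fibrillar collagen of cartilage, went the other way. Its signals were 0.09, -0.01 and -0.03 in ES cells and -3.18, -3.36 and -3.27 in ED cells, so that every ED array lay below every ES array. The change of Col2a1 was -3.28 (SE 0.15, adjusted p = 1.10e-10), 9.72-fold lower, and its second probe gave -3.49. Col24a1, a fibrillar collagen found in developing bone, changed by -1.92 (SE 0.35, adjusted p = 3.19e-04), with 2 of 3 ED arrays well above background. Of the 9 fibrillar genes tested, 5 were called higher and 2 lower, with a median change of 1.65. Col5a3 (0.00, adjusted p = 0.994) and Col27a1 (-0.15, adjusted p = 0.693) were not called.

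**Figure D2:**
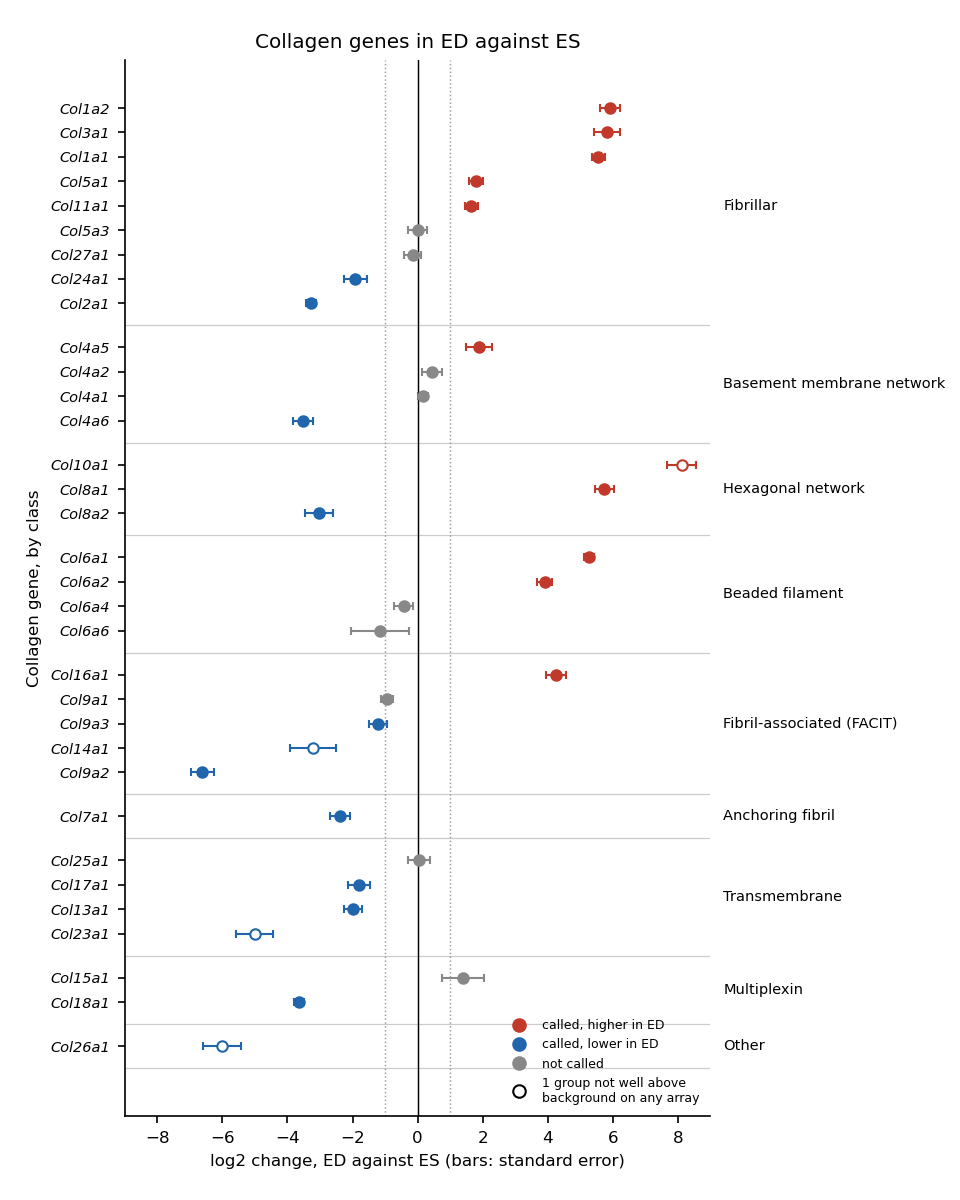
Log2 change of each collagen gene in ED against ES cells with its standard error, in order of structural class; open points mark genes not well above background on any array of 1 of the groups. Changes run from 8.12 (Col10a1) to -6.62 (Col9a2), and the called fibrillar genes lie on both sides of 0, with Col1a2 at 5.91 and Col2a1 at -3.28.

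Among the genes tested, the largest rise was in the hexagonal network collagens. Col10a1 encodes type X collagen, which is known from the cartilage of growth plates. It was at -9.79, -8.96 and -9.35 in ES cells, where it was well above background on no array, and at -1.21, -1.46 and -1.09 in ED cells. All ED arrays lay far above all ES arrays. The fitted change was 8.12 (SE 0.45, adjusted p = 2.59e-09), from a mean of -9.37 to a mean of -1.25. As the ES signals are background, the difference is given as a bound, at least 96.0-fold. A bound of this kind is the mean of the bright group minus the mean, over the arrays of the dim group, of the probe's own signal or the dimmest signal that any probe well above background had on that array, whichever is higher. The bounds hold for the signals as processed here and rest on that mark, which some negative spots also carried. With normexp background correction the changes were smaller than the bounds, at 4.51 for Col10a1, -1.21 for Col14a1, -1.86 for Col23a1 and -3.04 for Col26a1. Col8a1, a chain of type VIII collagen in the membranes under the cornea's and vessels' inner cell layers, was at -1.99, -2.0 and -2.0 in ES cells and at 3.78, 3.69 and 3.76 in ED cells. These values did not overlap and differed by 5.74 (SE 0.30, adjusted p = 3.34e-08, 53.5-fold). The other chain of that collagen, Col8a2, was lower in ED cells, by a log2 change of -3.02 (SE 0.43, adjusted p = 2.76e-05). With normexp background correction the change of Col8a2 was -1.78.

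In the beaded filament class, 2 of the 4 genes tested were called higher, Col6a1 and Col6a2. Col6a1 and Col6a2 encode chains of type VI collagen, whose remaining common chain, Col6a3, was not analysed here. Col6a1 was at -0.54, -0.75 and -1.01 in ES cells and at 4.38, 4.56 and 4.55 in ED cells. Col6a2 was at -2.08, -2.17 and -2.37 in ES cells and at 1.86, 1.61 and 1.62 in ED cells. Neither gene's ED arrays overlapped its ES arrays. The change was 5.26 for Col6a1 (SE 0.16, adjusted p = 2.24e-11, 38.4-fold) and 3.90 for Col6a2 (SE 0.22, adjusted p = 2.51e-09, 14.9-fold). Col6a4 changed by -0.43 (adjusted p = 0.242) and Col6a6 by -1.16 (adjusted p = 0.316), and neither was called. The second probe of Col6a6, with a mean of -9.21 in ES cells, was well above background on none of their arrays.

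**Figure D3:**
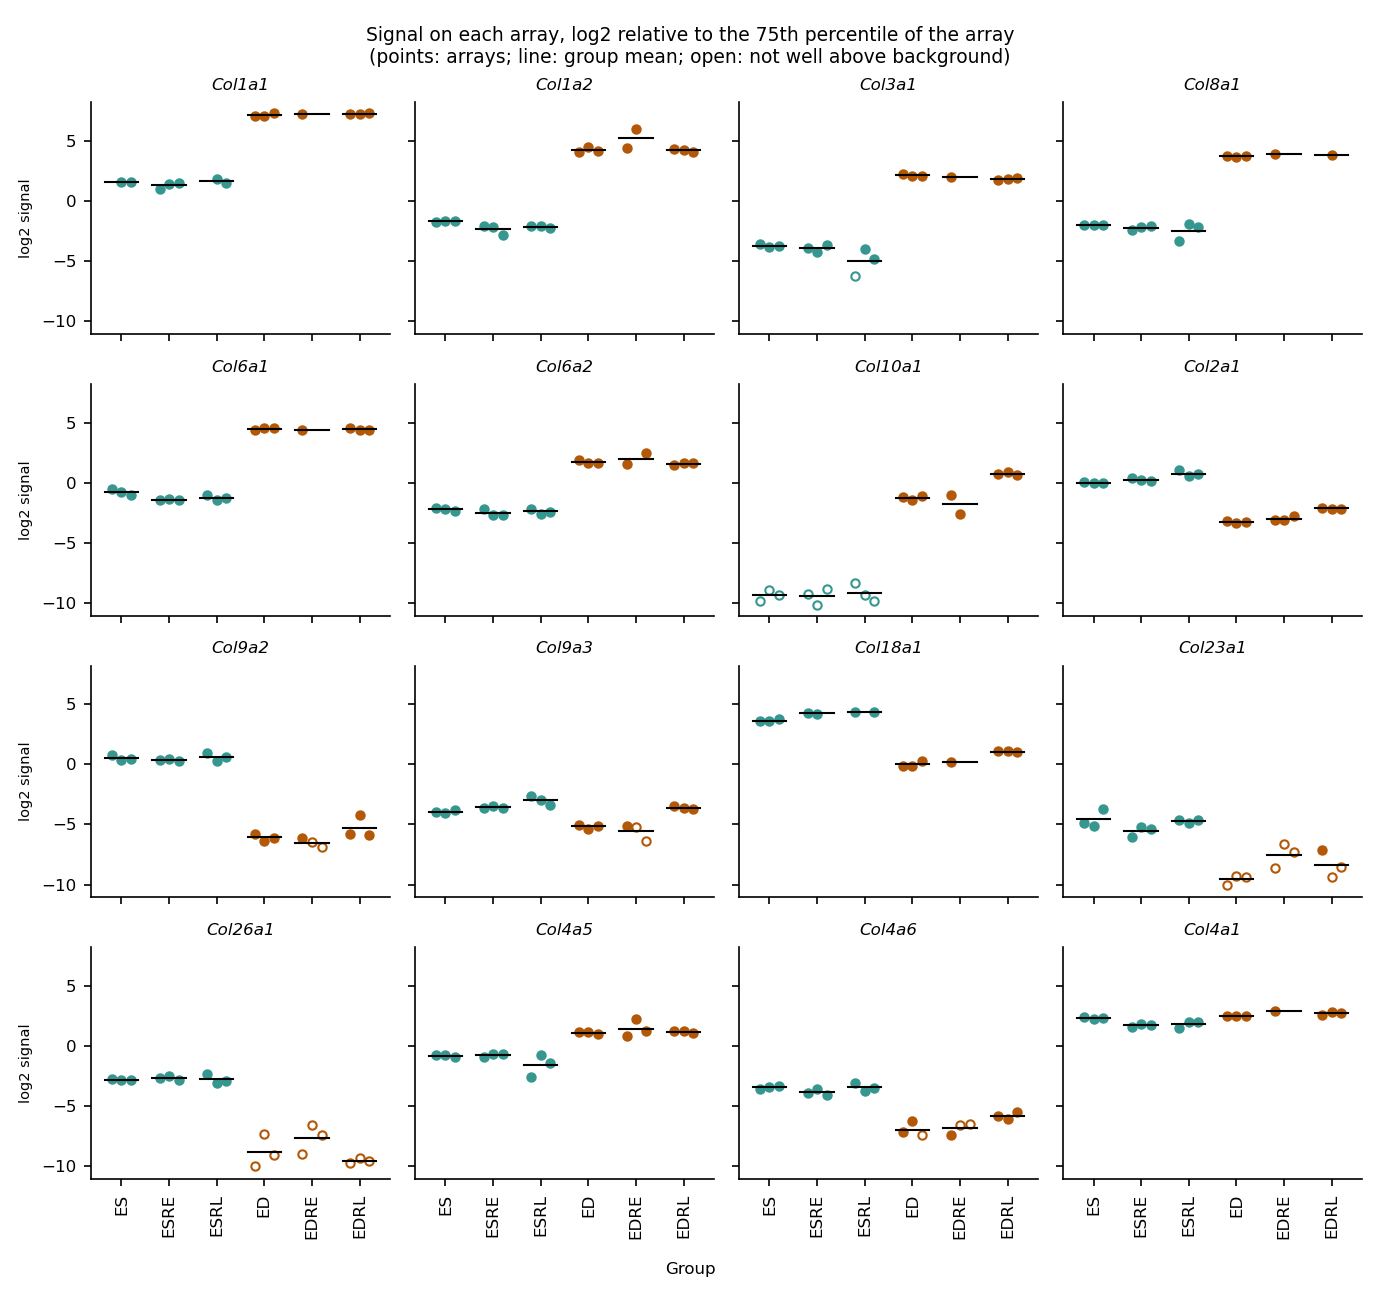
Log2 signal minus the array's 75th percentile for 16 collagen genes, with 1 point per array, lines at group means and open points for spots not well above background. Col6a1 lies between -1.45 and -0.54 on the ES, ESRE and ESRL arrays and between 4.38 and 4.56 on the ED, EDRE and EDRL arrays with a usable spot, and Col10a1 lies higher on the EDRL arrays (0.65 to 0.87) than on the ED arrays (-1.46 to -1.09).

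Among the FACITs, Col9a2 and Col9a3 were called lower in ED cells, and Col9a1 was not called. These genes encode chains of type IX collagen, which coats the type II fibrils of cartilage. Col9a2 was at 0.75, 0.39 and 0.48 in ES cells and at -5.77, -6.35 and -6.12 in ED cells, with all ED arrays far below. Its change of -6.62 (SE 0.36, adjusted p = 6.71e-10) was 98.2-fold, the largest fall among called collagens that were well above background on every ES and ED array. With normexp background correction the change of Col9a2 was -5.42, so its fold depends on how the background is corrected. Col9a3 was at -3.95, -4.07 and -3.82 in ES cells and at -5.06, -5.35 and -5.10 in ED cells, a smaller gap without overlap. Its change was -1.22 (SE 0.28, adjusted p = 0.00192 by limma, 2.33-fold lower). It was no longer called with the arrays scaled to their medians (-0.58, adjusted p = 0.139) or with quantile normalization (-0.51, adjusted p = 0.144). Nor was it called with the authors' processed values (-0.58, adjusted p = 0.150) or with normexp background correction (a change of -0.95). Over the alternatives other than leaving out 1 array, its adjusted p lay between 6.28e-05 and 0.440. Col9a1 changed by -0.93 (adjusted p = 6.37e-04), which is under the limit on size. Col14a1, a FACIT bound to type I fibrils, was lower as well, with a change of -3.22 (SE 0.72, adjusted p = 0.00150), at least 5.03-fold. Col16a1, a minor FACIT, was the exception in direction. It was at -4.59, -4.76 and -4.65 in ES cells and at -0.23, -0.62 and -0.41 in ED cells, a rise of 4.25 (SE 0.31, adjusted p = 2.03e-08, 19.0-fold).

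Type IV collagen makes the network of basement membranes, and its genes lie as head-to-head pairs. Col4a1 and Col4a2 encode the chains present in nearly all basement membranes. Col4a1 was at 2.44, 2.26 and 2.29 in ES cells and at 2.53, 2.52 and 2.46 in ED cells, a change of 0.17 (adjusted p = 0.440) that was not called. Col4a2 was at 4.47 and 4.51 in ES replicates 2 and 3 and at 4.93 in ED replicate 3, its only usable spots in these groups, a change of 0.44 (adjusted p = 0.313). With the arrays scaled to their medians Col4a2 was called higher (1.10, adjusted p = 0.0422), and with marked spots kept its change was 0.07 (adjusted p = 0.917). The pair on the X chromosome moved apart. Col4a5 was at -0.74, -0.77 and -0.89 in ES cells and at 1.18, 1.14 and 0.95 in ED cells. Col4a6, which starts 1342 bases away and is read in the opposite direction, was at -3.56, -3.42 and -3.31 in ES cells and at -7.17, -6.27 and -7.45 in ED cells. All ED arrays were above the ES arrays for Col4a5 and below them for Col4a6. The change was 1.89 for Col4a5 (SE 0.39, adjusted p = 8.06e-04, 3.70-fold) and -3.53 for Col4a6 (SE 0.31, adjusted p = 1.40e-07, 11.6-fold lower), with 2 of 3 ED arrays well above background for Col4a6. With normexp background correction the change of Col4a6 was -2.11. The laminins and other proteins of basement membranes are given with the partner genes.

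The remaining classes held no gene called higher. Of the collagens that span the cell membrane, Col23a1 was at -4.88, -5.10 and -3.68 in ES cells and at -10.01, -9.29 and -9.39 in ED cells, where it was well above background on no array. The ED arrays lay below the ES arrays without overlap. Its mean went from -4.55 to -9.56, a change of -5.01 (SE 0.56, adjusted p = 2.34e-06) and at least 7.41-fold. Col13a1, known from the junctions between nerve and muscle, changed by -1.98 (SE 0.27, adjusted p = 1.93e-05). Col17a1, a part of the plaques that fix skin cells to their basement membrane, changed by -1.80 (SE 0.35, adjusted p = 4.57e-04). Col25a1 was not called, with changes of 0.03 and 0.08 from its 2 probes. Col7a1, the chain of the anchoring fibrils of skin, changed by -2.39 (SE 0.31, adjusted p = 1.40e-05), with 2 usable ES arrays.

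Col18a1 is a multiplexin whose end fragment is known as endostatin. It was at 3.58, 3.59 and 3.75 in ES cells and at -0.17, -0.13 and 0.31 in ED cells. Every ED array lay below every ES array, by a change of -3.64 (SE 0.16, adjusted p = 8.21e-09), 12.5-fold, and the second probe gave -3.83. Col15a1, the other multiplexin, changed by 1.39 (adjusted p = 0.0973) and was not called, but it was called higher with the arrays scaled to their medians (2.04, adjusted p = 0.0203) and with quantile normalization (2.22, adjusted p = 0.0338). Its adjusted p was 0.493 with scan time as a random block. Col26a1 fits none of the classes. It was at -2.75, -2.85 and -2.80 in ES cells and at -10.01, -7.34 and -9.09 in ED cells, where no array was well above background. Its ED values were spread widely and all lay below the ES values, with means of -8.81 and -2.80. The change was -6.01 (SE 0.59, adjusted p = 5.16e-07), at least 24.9-fold lower.

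Scan times fell into 6 sets. The files do not say which arrays shared a slide, and the methods name a scan setting for slides with 1 array. The 3 ES arrays had a scan time of their own, and the 3 ED arrays shared theirs with replicate 3 of ESRE. No scan time held a group together with its control. With scan time as a random block in limma, 17 collagens were called in place of 24. No share of all genes is given for that fit, so the 17 have no comparison. The 7 lost were Col4a5 (a change of 1.47 in that fit, adjusted p = 0.264), Col5a1 (1.64, adjusted p = 0.0757), Col9a3 (-1.05, adjusted p = 0.440), Col11a1 (1.51, adjusted p = 0.0645), Col14a1 (-3.23, adjusted p = 0.116), Col17a1 (-2.04, adjusted p = 0.0879) and Col24a1 (-1.84, adjusted p = 0.312). These adjusted p are the highest of each gene over the alternatives run, and the lowest, leaving out 1 array aside, lay between 1.17e-07 (Col11a1) and 6.28e-05 (Col9a3). Within the shared scan time, ED cells can be set only against replicate 3 of ESRE, an irradiated ES sample, with no test. Of the called collagens with a usable spot on that array, 23 of 23 had all ED arrays on the called side of it, as did 94.2% of the 11493 called probes of all genes. The ED mean minus that array was 7.11 for Col1a2, beside 5.91 against ES cells, 5.95 beside 5.26 for Col6a1, 5.77 beside 5.82 for Col3a1, -6.33 beside -6.62 for Col9a2, -3.42 beside -3.28 for Col2a1 and 0.86 beside 1.65 for Col11a1. Col10a1 was not well above background on that array.

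The scaling of the arrays also moves these counts. Scaling to the array median in place of the 75th percentile shifted the median change of all genes by 0.64 and the share of called genes that were higher from 35.8% to 58.9%. With it 13 collagens were higher and 12 lower, and their median was 0.49 beside 0.45 for all genes. Quantile normalization shifted the median of all genes by 0.42 and that share to 51.7%, with 12 collagens higher and 10 lower and a median of 0.13 beside 0.23. No called collagen changed its sign with either scaling. Col17a1 and Col24a1 were not called with quantile normalization, and Col14a1 and Col24a1 were not called with normexp background correction.

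Markers were read to see what the ED cultures held. Of 6 stem cell markers tested, all 6 were called lower in ED cells. Of all genes tested, 14.9% were called higher and 26.7% lower. Pou5f1, a defining factor of the stem cell state, changed by -10.29 (SE 0.28, adjusted p = 7.16e-13 by limma), and Zfp42 was not well above background on any ED array. Of the 7 stem cell markers on the array, 5 were still well above background on all 3 ED arrays. Sox2 changed by -2.37 and had a mean of 2.32 in ED cells. Each list is given by its summed level, the log2 of its genes' summed intensities on the scale used throughout, with marked spots kept. Since each probe binds its target differently, a sum follows its brightest probes. The gene named brightest has the brightest probe, not necessarily the most RNA. Where that gene differs between groups, the sums follow different probes. The summed level of the stem cell list was 9.02, 9.01 and 8.99 in ES cells and 2.31, 2.40 and 2.53 in ED cells, with Dppa5a brightest in ES and Sox2 in ED cells. Of 9 fibroblast or mesenchyme markers, 7 were higher and 1 lower. Their summed level was 5.03, 5.04 and 4.95 in ES cells and 8.18, 8.37 and 8.59 in ED cells, with Vim brightest in both. S100a4 was 10.20 higher (SE 0.30, adjusted p = 1.69e-11) and Prrx1 8.21 higher (SE 0.20, adjusted p = 3.75e-12) in ED cells. Thy1, which often defines fibroblasts, was well above background on no ED array, at least 388-fold lower than in ES cells.

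Cartilage and bone markers split. Of 5 tested, 2 were higher and 2 lower. Runx2, a bone and growth plate factor, was 6.73 higher in ED cells (SE 0.31, adjusted p = 1.19e-10). Sox9, a cartilage factor, was 2.31 higher (SE 0.31, adjusted p = 1.34e-05). Acan, the main proteoglycan of cartilage, was well above background on no ED array and at least 39.1-fold lower. The summed level of the list was -0.74, -0.93 and -0.87 in ES cells and 3.02, 3.22 and 3.29 in ED cells, with Acan brightest in ES and Runx2 in ED cells. Those sums follow different probes, and the median change of the genes tested was -0.02.

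The other marker lists are given the same way. Of 6 endoderm markers tested, 1 was higher and 4 were lower, with summed levels of 1.89, 1.99 and 1.98 in ES cells and 1.97, 2.21 and 2.34 in ED cells, Gata6 and Dab2 brightest, and Foxa2 not well above background in ED cells. Of 3 smooth muscle markers, 1 was higher and 2 were lower, with sums of 0.18, 0.00 and -0.02 in ES cells and -0.54, -0.63 and -0.50 in ED cells, Tagln and Acta2 brightest, and Cnn1 not well above background in either group. All 4 endothelial markers were lower, with sums of 2.62, 2.65 and 2.33 in ES cells and -3.65, -3.54 and -3.52 in ED cells, and Pecam1 and Tek brightest. Of 3 keratinocyte markers, 1 was higher and 2 were lower, with sums of -0.21, -0.22 and -0.05 in ES cells and -2.27, -2.36 and -2.33 in ED cells, and Krt14 and Trp63 brightest. Of 4 neural markers, 1 was higher and 1 lower, with sums of 2.40, 2.26 and 2.16 in ES cells and 2.59, 2.99 and 3.05 in ED cells, and Nes brightest. Of the blood markers only Cd34, which stromal cells carry too, could be tested, and it was 7.11 higher in ED cells (SE 0.24, adjusted p = 1.80e-11). The sums of the blood list were -0.47, -0.81 and -0.91 in ES cells and 6.16, 6.50 and 6.44 in ED cells, and Ptprc, which defines white blood cells, was not well above background in either group. The part of these cell types in the collagen results was not tested.

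Genes whose products make, trim, bind or degrade collagen were read from 6 lists. Over all genes tested, 41.5% were called, 14.9% higher and 26.7% lower. The processing and crosslinking list had 6 genes higher and 1 lower of 11 tested, with a median of 1.53. Lox, a lysyl oxidase that crosslinks collagen, was at -4.97, -4.35 and -4.57 in ES cells and at 3.33, 3.18 and 2.57 in ED cells, a rise of 7.66 (SE 0.52, adjusted p = 9.59e-09 by limma). Its relative Loxl1 was 4.87 higher (adjusted p = 2.00e-06), at least 20-fold. Pcolce, which speeds the trimming of procollagen, was 2.80 higher (adjusted p = 5.88e-08). Tll2, on the same list, changed by -2.48 (adjusted p = 0.00253), at least 1.55-fold lower. The folding and modifying enzymes had 5 genes higher and 3 lower of 19 tested, with a median of 0.25. P4ha3, a prolyl hydroxylase, was 5.71 higher (SE 0.25, adjusted p = 6.70e-11). Serpinh1, a chaperone for collagen, was 2.84 higher (adjusted p = 1.86e-05) on 1 usable ES spot and with the spread of the other groups, and P3h3, of the prolyl hydroxylase family that acts at another position, 2.48 higher (adjusted p = 2.17e-09). The falls were Colgalt2, which adds sugar to collagen (-3.60, adjusted p = 1.51e-04, at least 2.86-fold), Creb3l1, a transcription factor that drives collagen secretion (-2.56, adjusted p = 2.79e-05), and Tmem38b, a channel of the endoplasmic reticulum (-2.42, adjusted p = 1.26e-07).

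**Figure D4:**
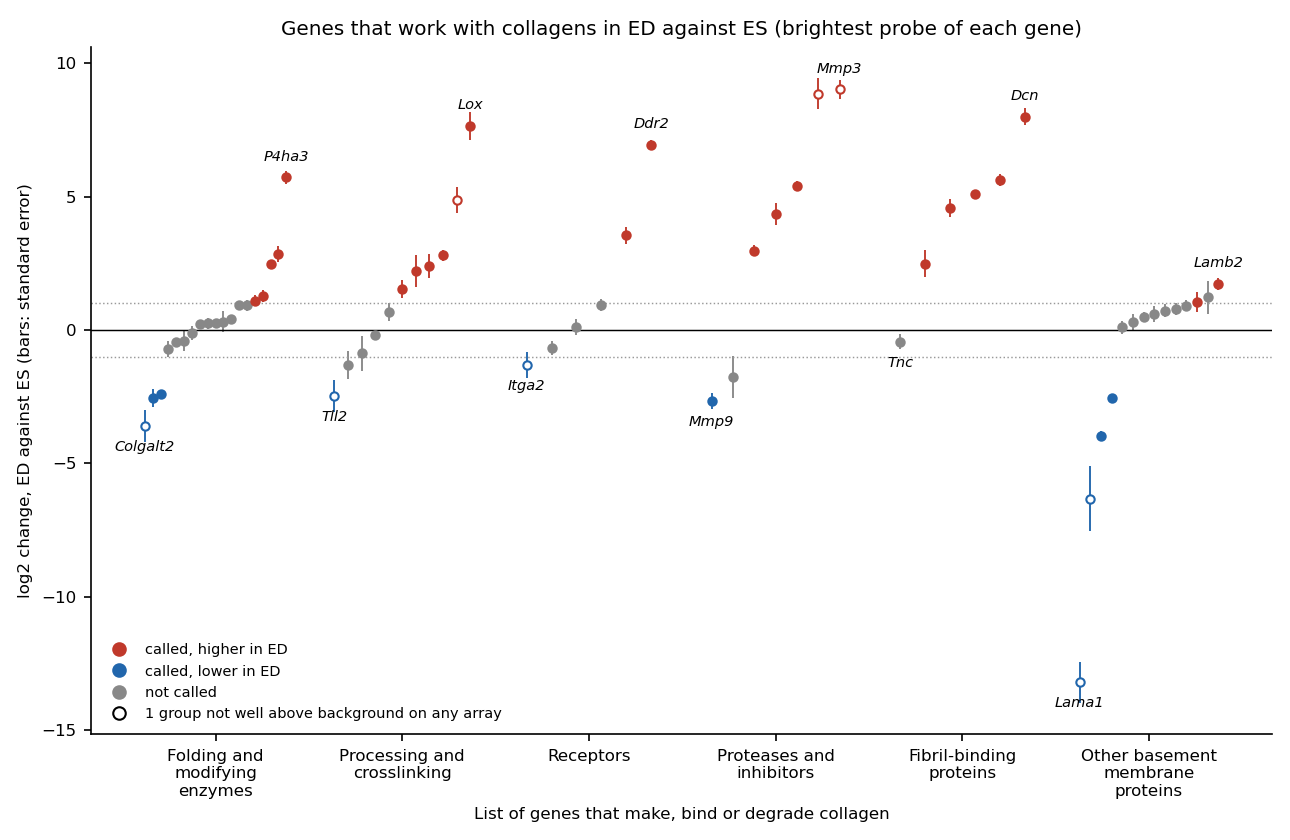
Log2 change in ED against ES cells of the genes on the 6 lists of collagen partners, each by its brightest probe; open points mark genes not well above background on any array of 1 of the groups. Mmp3 lies at 9.01 and Dcn at 7.99, and Lama1 lies lowest at -13.21.

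Among proteases that cut collagen and their inhibitors, 5 of 7 tested were higher and 1 was lower, with a median of 4.34. Mmp3 was 9.01 higher in ED cells (adjusted p = 5.90e-11), at least 131-fold, and the collagenase Mmp13, on 1 usable ED spot and again with the spread of the other groups, 8.85 higher (adjusted p = 1.78e-06), at least 113.0-fold. The inhibitor Timp2 was 5.41 higher (adjusted p = 2.01e-11), and the gelatinase Mmp9 changed by -2.67 (adjusted p = 1.84e-06). Of 6 proteins that bind fibrils, 5 were higher, with a median of 4.83. Decorin (Dcn), which coats fibrils of type I, was 7.99 higher (adjusted p = 5.22e-11), its relative Bgn 5.62 higher (adjusted p = 3.15e-10) and the microfibril protein Fbn1 5.09 higher (adjusted p = 5.14e-12). Of 6 receptors tested, 2 were higher and 1 lower, with a median of 0.52. Ddr2, a kinase that binds fibrillar collagen, was 6.94 higher (adjusted p = 2.82e-11), and Mrc2, which takes up collagen fragments, 3.56 higher (adjusted p = 2.05e-07). The integrin chain Itga2 is the 1 gene lower. It passed at -1.31 (adjusted p = 0.0371), but it was well above background on no ED array and its bound came to less than 1-fold on the usable spots, against at least 2.04-fold with marked spots kept.

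The other proteins of basement membranes had 2 genes higher and 4 lower of 14 tested, with a median of 0.54. Lama1, the laminin chain of early embryos, was at least 3283-fold lower in ED cells (adjusted p = 4.26e-09 by limma) and well above background on none of their arrays. Lamb3, a laminin chain of skin, was at least 17.5-fold lower on 1 usable ES spot (adjusted p = 0.00212), and Nid2, which links laminin to type IV collagen, changed by -3.97 (adjusted p = 2.33e-09). Lamb2 was 1.73 higher (adjusted p = 2.11e-05) and Lama4 1.06 higher (adjusted p = 0.0305). The median over all genes in this comparison was -0.19. The partner lists hold genes of fibroblasts too, and their part in the collagen results was not tested. The genes Itga10, Gp6 and Hbb-b1 of the lists were not analysed here.

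The next comparisons ask what IR did within each cell type. ESRE and ESRL share the ES arrays as controls, and EDRE and EDRL share the ED arrays. In ES cells 15 min after IR, no collagen passed the threshold. Of 31 genes tested in ESRE, limma called 0, where 0.463% of 25507 genes were called in all. At an unadjusted p under 0.05 there were 5 genes (Col1a2, Col4a1, Col6a1, Col11a1 and Col18a1), beside 9.87% of all genes tested, and the methods' t-test called 0 with and without adjustment. Changes ran from -0.98 (Col23a1) to 0.74 (Col11a1), with a median of -0.16 beside -0.08 for all genes. Col1a2 was at -2.09, -2.12 and -2.84 in ESRE cells, a change of -0.71. Col6a1 was at -1.40, -1.33 and -1.45, a change of -0.63.

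In ES cells 4 h after IR, limma called 0 of 32 collagens in ESRL, where 7.59% of 25599 genes were called. There were 8 genes at an unadjusted p under 0.05, beside 26.4% of all genes, and the methods' t-test called 0 with and without adjustment. Col2a1, Col9a1, Col9a3 and Col18a1 had an adjusted p under 0.05 with changes under the limit on size. Col2a1 was at 1.02, 0.53 and 0.75 in ESRL cells, above all ES arrays, a change of 0.75 (adjusted p = 0.00734 by limma), while its second probe gave 0.36 (adjusted p = 0.298). Col9a1, another chain of type IX collagen, was at -6.00, -5.44 and -5.35, below the ES arrays at -4.66, -4.61 and -4.69, a change of -0.94 (adjusted p = 0.00757). Col9a3 was at -2.64, -2.96 and -3.38, above the ES arrays, a change of 0.95 (adjusted p = 0.0486), and Col18a1 changed by 0.73 (adjusted p = 0.0342). Col3a1 was at -6.24, -3.97 and -4.84, a change of -1.33 (adjusted p = 0.0637) with a wide spread. The median was -0.12 beside -0.18 for all genes. Without replicate 2 of ESRL, Col3a1, Col9a1 and Col4a5 were called lower, without replicate 3 of ESRL Col9a1 was called lower and Col9a3 higher, and without replicate 1 of EDRE Col3a1 was called lower. With scaling to the array median, Col2a1 (1.06), Col9a3 (1.26) and Col18a1 (1.01 and 1.17 from its 2 probes) were called higher. The same genes were called higher with the authors' processed values, and Col9a3 (1.28) with quantile normalization.

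In ED cells 15 min after IR, limma called 0 of 27 collagens in EDRE, where 5.2% of 22404 genes were called. There were 5 genes at an unadjusted p under 0.05, beside 26.9% of all genes, and the methods' t-test called 0 of 20 with and without adjustment. Changes ran from -1.31 (Col15a1) to 1.06 (Col6a6), with a median of 0.10 beside 0.02 for all genes. Col15a1 was well above background on 1 of 3 EDRE arrays, and its value of -6.59 in replicate 2 was the lowest of that array, so its change is not exact. Col1a2 was at 4.45 and 5.99 in EDRE replicates 1 and 2, with no usable spot in replicate 3, a change of 0.96 (adjusted p = 0.0965 by limma). Col16a1 was at -0.44, 1.18 and 0.68, a change of 0.89 (adjusted p = 0.0815). Col27a1 was at -1.78, -2.67 and -3.25, a change of -0.99 (adjusted p = 0.0377). For these genes replicate 1 lay nearest to the ED arrays, and the usable spots of replicates 2 and 3, the arrays that stood apart, lay farther off. Replicate 1 minus the ED mean was 0.19 for Col1a2, -0.02 for Col16a1 and -0.21 for Col27a1. Without replicate 1, limma called 6 collagens, on replicates 2 and 3 alone. No share of all genes is given for that fit, so the 6 have no comparison.

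In ED cells 4 h after IR, 4 collagens had higher signals than in unirradiated ED cells. They were Col10a1, Col9a3, Col2a1 and Col18a1. These were 4 of 28 tested in EDRL (14.3%), all higher, where limma called 1.66% of 23209 genes in either direction and 1.4% higher. None of the 4 was called with scan time as a random block, a fit that could hardly tell IR from scan time, as given below. Col10a1 was at 0.72, 0.87 and 0.65 in EDRL cells, above all ED arrays, a change of 1.996 (SE 0.45, adjusted p = 0.0327, 3.99-fold). Col9a3 was at -3.43, -3.60 and -3.75, a change of 1.58 (SE 0.28, adjusted p = 0.00593, 2.99-fold). Both left the ED range completely. Col2a1 was at -2.11, -2.17 and -2.15, a change of 1.13 (SE 0.14, adjusted p = 3.89e-04, 2.18-fold), and its second probe gave 1.26. Col18a1 was at 1.10, 1.09 and 0.99, a change of 1.06 (SE 0.16, adjusted p = 0.00512, 2.08-fold), and its second probe gave 1.18. Col2a1, Col9a3 and Col18a1 had been called lower in ED than in ES cells, and Col10a1 higher.

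Other collagens in EDRL did not pass. Col4a6 was at -5.83, -6.05 and -5.50, above all ED arrays, a change of 1.17 (SE 0.30, adjusted p = 0.0593 by limma). It was called higher with scaling to the array median, with the authors' processed values, by the unadjusted t-test and without replicates 2 and 3 of EDRE. It was also called without replicate 1 of ESRL, replicate 2 of ED or replicate 1 of EDRE, each left out alone. Col9a2 changed by 0.80 (adjusted p = 0.319), Col13a1 by -0.58 (adjusted p = 0.355), Col9a1 by -0.19 and Col11a1 by 0.06. There were 7 genes at an unadjusted p under 0.05, beside 14.3% of all genes, and the methods' t-test called 5 of 26 without adjustment and 4 with it. The median of the collagens was 0.08 beside -0.10 for all genes. The fibrillar genes that were high in ED cells were high here too. Col1a1 was at 7.28, 7.25 and 7.29, Col1a2 at 4.37, 4.25 and 4.07, and Col3a1 at 1.79, 1.84 and 1.89.

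**Figure D5:**
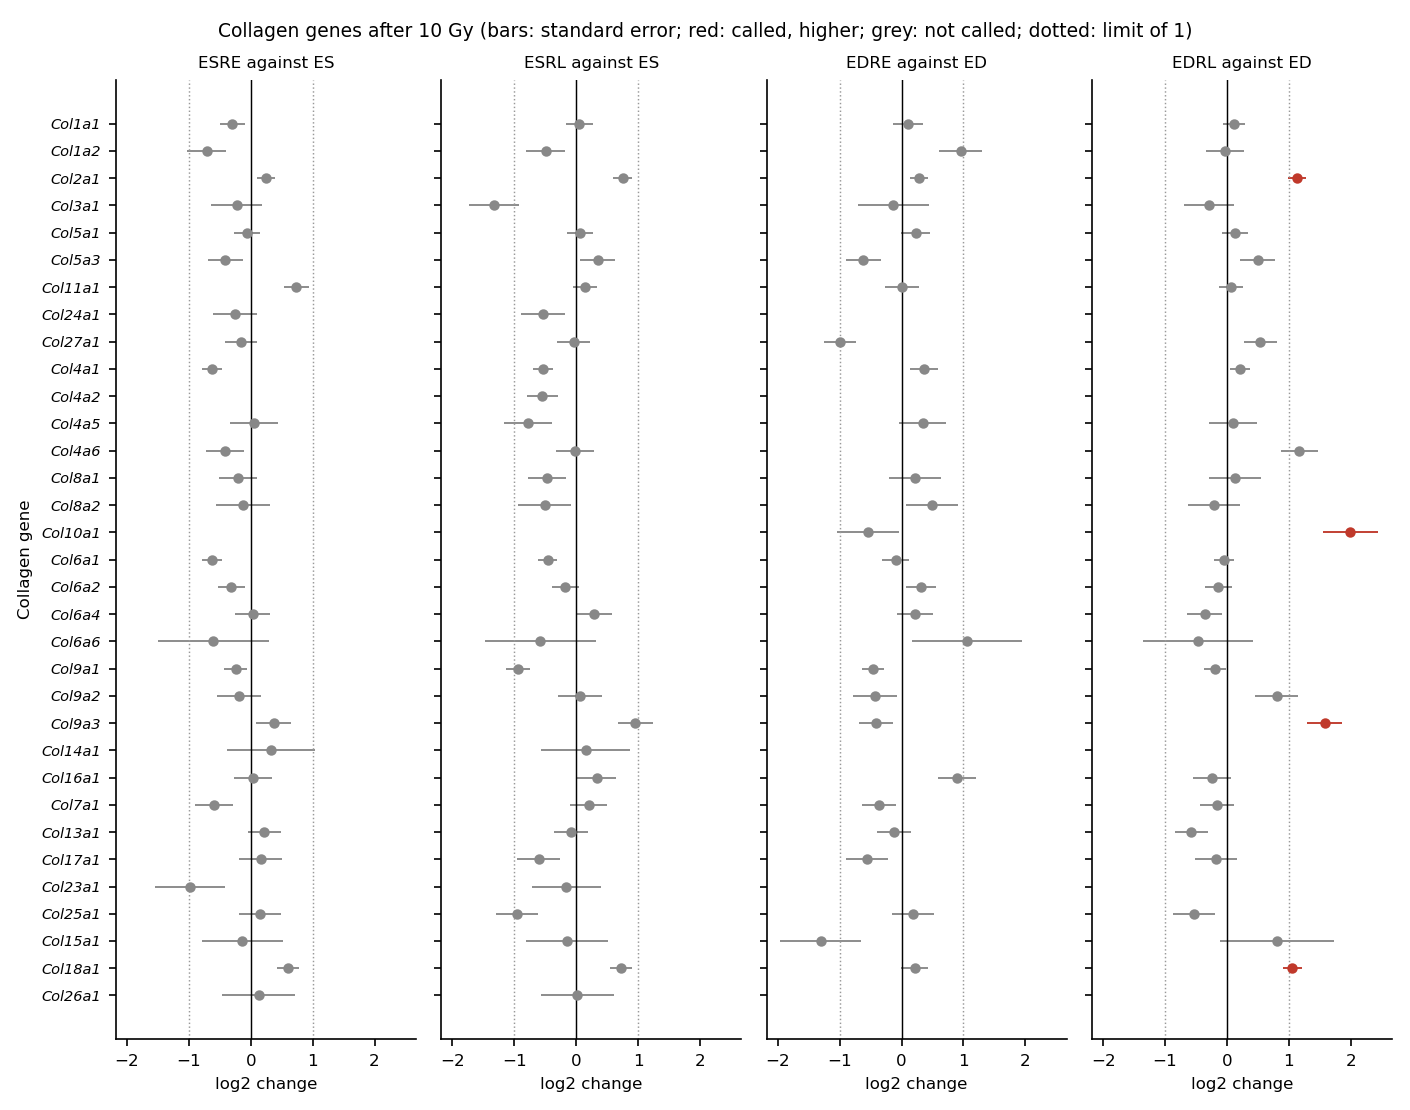
Log2 change of each tested collagen gene after IR in the 4 comparisons ESRE against ES, ESRL against ES, EDRE against ED and EDRL against ED, with standard errors. Called genes appear only in EDRL against ED, where Col10a1 lies at 1.996, Col9a3 at 1.58, Col2a1 at 1.13 and Col18a1 at 1.06. With scan time as a random block none of them is called, but ED and EDRL share no scan time, so that fit can hardly tell the 2 apart.

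The 3 EDRL arrays shared a scan time with replicate 1 of EDRE and the 3 ED arrays lay in another, so ED and EDRL differ in scan time throughout. With scan time as a random block, none of the 4 genes was called by limma (adjusted p = 0.636 to 1.00), with changes in that fit of 1.53 for Col10a1, 1.14 for Col9a3, 1.03 for Col2a1 and 1.06 for Col18a1. That fit took arrays of the same scan time to correlate at 0.81, and ED and EDRL shared none. It could therefore hardly tell IR from scan time, and no share of all genes is given for it. Within the scan time of EDRL, all 3 arrays of EDRL lay above replicate 1 of EDRE for each of the 4 genes, with no test. Of the 404 probes of all genes called in EDRL, 85.4% lay on the called side of that array, and of those called higher 89% did. The EDRL mean minus that array was 1.74 for Col10a1, 1.57 for Col9a3, 0.95 for Col2a1 and 0.85 for Col18a1, and that array minus the ED mean was 0.25, 0.01, 0.18 and 0.21 in the same order. Col2a1 and Col9a3 were called whichever of the 18 arrays was left out. Col10a1 was lost with 7 of them left out, with an adjusted p of 0.0528 without replicate 3 of ES and of 0.0708 to 0.133 without an array of ED or EDRL, and Col18a1 was called with each of them left out, though without replicates 1 and 2 of ED only through its second probe (1.12, adjusted p = 0.0161, and 1.17, adjusted p = 0.0210), as the brighter one changed by 0.97 and 0.99. Col9a3 was also lost with normexp background correction (adjusted p = 0.195), and Col10a1 without the filter on dim probes (0.0583). Over the alternatives other than leaving out 1 array, the adjusted p lay between 0.00115 and 1.00 for Col10a1, 1.73e-04 and 1.00 for Col9a3, 2.32e-04 and 0.636 for Col2a1, and 0.00144 and 1.00 for Col18a1.

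Whether the responses of ES and ED cells differ was tested as the interaction between IR and cell type. At 15 min limma called 0 of 32 collagens, where 2.09% of 25773 genes were called, and 4 had an unadjusted p under 0.05, beside 19.4% of all genes. They were Col23a1 (3.02, adjusted p = 0.0662), Col1a2 (1.67, adjusted p = 0.0881), Col4a1 (1.00, adjusted p = 0.0945) and Col27a1 (-0.84). The first of these rests on ED and EDRE signals near background. Without replicate 1 of EDRE, 9 collagens were called in this interaction, on replicates 2 and 3 of EDRE, which stood apart. No share of all genes is given for that fit. Without replicate 1 of EDRL 1 collagen was called, Col23a1. At 4 h limma called 0 of 32, where 1.16% of 26015 genes were called, and 5 had an unadjusted p under 0.05, beside 16% of all genes. They were Col10a1 (1.79, adjusted p = 0.206), Col2a1 by its second probe (0.90, adjusted p = 0.158, with 0.38 and 0.430 for the brighter one), Col4a6 (1.19, adjusted p = 0.209), Col4a1 (0.75, adjusted p = 0.155) and Col9a1 (0.75). Col18a1 gave 0.33 (adjusted p = 0.564) and 0.50 (adjusted p = 0.385) from its 2 probes, and Col9a3 0.63 (adjusted p = 0.485). So the rise of the 4 genes in EDRL is not shown to differ from the change in ESRL, where Col2a1, Col9a3 and Col18a1 also had positive values. Col10a1 was well above background on no ES or ESRL array, so its interaction sets the change in ED cells against background. The median was 0.23 at 15 min beside 0.21 for all genes, and 0.42 at 4 h beside 0.16.

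Partner and marker genes were read in the same comparisons. In ESRL, P4ha3 was 1.06 higher (adjusted p = 0.0179 by limma), and Mia3, which helps load procollagen into transport vesicles, changed by -1.47 (adjusted p = 0.0312). In EDRE, Mia3 changed by -1.43 (adjusted p = 0.0413), at -4.42, -5.65 and -5.85, with 1 of 3 EDRE arrays well above background. Mmp13 changed by -2.93 in EDRE on 1 usable spot each in ED and EDRE cells, so no p is given. With marked spots kept, its mean was -1.05 in ED and -1.70 in EDRE cells. In EDRL, Creb3l1 was 1.57 higher (adjusted p = 0.0262). P4ha3 also passed in both interactions, at -1.49 at 15 min (adjusted p = 0.0459) and -1.61 at 4 h (adjusted p = 0.0418), as did the receptor chain Itga2 at 15 min (2.80, adjusted p = 0.0488), which was well above background on 0 of 3 ED and 1 of 3 EDRE arrays. Of the markers, the bone factor Sp7 passed in ESRE (-2.01, adjusted p = 0.0141). In ESRL, Sp7 (-1.66, adjusted p = 0.00738), Pdgfra (-1.40, adjusted p = 0.00656), Sox9 (-1.26, adjusted p = 0.0208), Sox17 (-1.18, adjusted p = 0.0169), Prrx1 (-1.09, adjusted p = 0.00724) and Gata4 (-1.07, adjusted p = 0.0437) were called lower. In EDRE, Pou5f1 (-1.68, adjusted p = 0.00634) and Sox17 (-1.44, adjusted p = 0.0111) were called lower, each with 1 of 3 EDRE arrays well above background. Dab2 was called higher by the probe with the highest mean (1.16, adjusted p = 0.0430). Its other probes were not called (0.62 to 1.12, adjusted p = 0.0515 to 0.279). The EDRE values here include replicates 2 and 3, which stood apart. In the interaction at 15 min, Pou5f1 (-2.30, adjusted p = 0.0128) and Esrrb (-1.46, adjusted p = 0.0170) passed. Bglap, the bone protein osteocalcin, passed in EDRL (2.14, adjusted p = 0.0395) on 1 usable EDRL spot, with the spread of the other groups. It was the only 1 of 4 cartilage and bone markers tested there that did, beside Runx2 (0.23, adjusted p = 0.809), Sox9 (0.14, adjusted p = 0.888) and Sp7 (-0.92, adjusted p = 0.189). Tek, an endothelial receptor, was 2.58 higher in EDRL (adjusted p = 5.95e-06) and passed in the interaction at 4 h (2.23, adjusted p = 0.00307). In EDRL it was 1 of 3 endothelial markers tested, beside Cdh5 (-0.40, adjusted p = 0.775) and Kdr (-0.02, adjusted p = 0.992), with a median of -0.02. The summed endothelial level was -1.38, -1.93 and -1.89 in EDRL, with Tek brightest. The summed cartilage and bone level in EDRL was 3.47, 3.44 and 3.37, beside 3.02, 3.22 and 3.29 in ED cells, and the summed stem cell level was 2.69, 2.54 and 2.56, beside 2.31, 2.40 and 2.53. Their part in the rise of the 4 collagens was not tested.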

How the data were processed

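One-color (Cy3) Agilent arrays of 18 samples were analysed, 3 in each of 6 groups taken from the sample descriptions. Per the file headers, the deposited scanner files hold spot intensity after Feature Extraction 10.7.3.1 had corrected the background (the descriptions name 9.1). The table of processed values that the authors deposited holds log2 values for 30133 probes, found here to be the log2 intensity, with a floor of 5, minus about the median of each array (column medians 0.572 to 0.720); it was used as an alternative only. Each array held 39448 spots. Controls (1417) and unmarked negative spots (200) were left out, spots marked as outliers were set to missing, and spots of 1 probe were averaged, which left 37246 probes, of which 22216 were named through their RefSeq accession and the rest kept the name in the files.

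The log2 signal minus the 75th percentile of each array was fitted with limma 3.58.1 in R 4.3.3 with the package data.table, version 1.17.8, over all 18 arrays and 6 groups, with empirical Bayes moderation and Benjamini-Hochberg adjustment within each comparison over its tested probes. ED was compared with ES and each irradiated group with its own control, and the interaction between IR and cell type was fitted for 15 min and for 4 h. Tested probes stood well above background throughout 1 of the groups compared, on each of its 3 arrays, or throughout any group for an interaction. Calls needed an adjusted p below 0.05 with a log2 change larger than 1. The code was tested on simulated data.

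The alternatives were scaling to the median, quantile normalization, normexp background correction with an offset of 50 on the median signal, outlier spots kept, no filter on dim probes, a filter on both groups, scan time as a random block, the replicate number as a block, only the groups compared, the authors' processed values, the methods' t-test, no limit on size, a single probe per gene, the arrays of EDRE that stood apart left out, and each array left out in turn.

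Values per array were printed for the 6 largest rises and 6 largest falls called in ED against ES, for collagens called after IR and for partners in 1 heterotrimer or head-to-head pair, by the probe with the highest mean; Col16a1 and the uncalled genes named after IR were added after their values were seen. Of each partner list the 3 largest rises and falls, and genes called after IR, were named; the marker genes named were picked after their values were seen. The lists were collagen classes, 6 partner lists (folding and modifying enzymes, processing and crosslinking, receptors, proteases and inhibitors, other basement membrane proteins, fibril-binding proteins) and 9 marker lists (stem cell, fibroblast or mesenchyme, endoderm, smooth muscle, endothelium, cartilage and bone, keratinocyte, neural, blood). The collagen genes and the lists were chosen with earlier results of these data known.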

Additional observations from a re-analysis of the deposited data

Results flagged for a closer look

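Col5a2, a chain of the fibrillar type V collagen, drew attention in data that the comparisons do not use, since its spots were marked as not uniform on all 3 ED arrays. With those spots kept, its mean was -0.28 in ED cells and -8.30 in ES cells, a difference of 8.02. The lowest ED value was -0.67 and the highest ES value -7.61. Col5a2 was well above background on 3 of 3 ED arrays and on 0 of 3 ES arrays, so the ED level was at least 170.0-fold higher. With all spots kept, its mean was -0.03 in EDRL cells. In EDRE cells it was at 0.29, -3.21 and -3.15 in replicates 1 to 3, of which replicates 2 and 3 are the arrays that stood apart.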

How the results depend on the processing

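In ED against ES, 24 collagens were called, and between 17 and 25 under the alternatives. The share of all genes called is not given for the alternatives, here or below, so their counts have no comparison. The 17 came with scan time as a random block, 8 higher and 9 lower, and 18 were called where probes had to stand well above background throughout both groups, with 27 genes tested. All 24 were called again whichever of the 18 arrays was left out, where 24 to 25 genes were called in all. No called collagen changed its sign under any alternative run. The median change of -0.15 was 0.49 with scaling to the median, 0.13 with quantile normalization, -0.13 with normexp, -0.073 with outlier spots kept, -0.20 without the filter, 0.034 with the filter on both groups, -0.46 with scan time as a random block, -0.29 with the replicate block, 0.57 with the processed table, and -0.31 to 0.012 with 1 array left out.

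In ESRL, 0 collagens became 3 with scaling to the median, 1 with quantile normalization, 1 without replicates 2 and 3 of EDRE, 3 with the processed table, 4 without the limit on size, and 0 to 3 with 1 array left out (3 without replicate 2 of ESRL, 2 without replicate 3 of ESRL, 1 without replicate 1 of EDRE). In EDRE, 0 became 2 with scaling to the median, with normexp, with outlier spots kept and without the filter, 3 with the processed table, 1 without the limit on size, and 0 to 6 with 1 array left out, the 6 without replicate 1 of EDRE. In EDRL, 4 became 0 with scan time as a random block, 5 with scaling to the median, with the processed table and without replicates 2 and 3 of EDRE, 3 with normexp and without the filter, and 3 to 5 with 1 array left out. In the interaction at 15 min, 0 became 2 with scaling to the median, 1 with outlier spots kept, 1 without replicates 2 and 3 of EDRE, 3 with the processed table, and 0 to 9 with 1 array left out, the 9 without replicate 1 of EDRE. In ESRE and in the interaction at 4 h, limma called 0 under all alternatives run, against 5 genes each at an unadjusted p under 0.05 in the fit reported. The 6 and the 9 rest on replicates 2 and 3 of EDRE, which stood apart, and have no share of all genes beside them. The causes were not tested. The methods' t-test was not run for interactions or medians.

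With the replicate number as a block, 24 collagens were called in ED against ES and 4 in EDRL, and the block changed no call. In the 5 comparisons between groups, the 15 pairs of same-numbered arrays had deviations that correlated at -0.39 to 0.30, over 0.1 in 2 pairs, and in 4 of the 15 the correlation was best with the own number, so the numbers do not pair the samples.

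The choice of scaling shifted the median of all genes after IR as well. Scaling to the median shifted it by 0.31 in ESRL, where the share of called genes that were higher went from 9.11% to 34.8%, by 0.25 in EDRE (42.9% to 71.9%), by 0.15 in EDRL, by 0.14 in the interaction at 15 min (59.3% to 74.6%) and by -0.16 at 4 h (78.7% to 68.3%). With quantile normalization these shares were 34.6% in ESRL, 30.2% in EDRE, 41.5% in the interaction at 15 min and 52.4% at 4 h. Normexp shifted the median by 0.58 in EDRE and by 0.63 in the interaction at 15 min. Signal over background limits what could be tested, since 5 collagens were never well above background on all arrays of a group and few EDRE spots of the bright collagens could be used. Col4a2 had no usable spot in ESRE, EDRE or EDRL.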
